A study of Mus musculus with 6 samples.

Results

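The 9 Pax genes, Pax1 to Pax9, were described by the open chromatin around them in untreated E14 mouse embryonic stem cells. Peaks of the deposited ATAC-seq list were taken as members where they overlapped a Pax gene's RefSeq span widened by 50 kb on each side, which gave 76 of the 77629 peaks. The study addressed how NSD1, a methyltransferase for lysine 36 of histone H3, bears on enhancers and cell fate. Its labels describe 6 samples in groups of 1: NSD1-dTAG knockin cells, grown in 2i/LIF, after 0, 1, 6 and 24 h with dTAG-13 at 500 nM, and day 6 embryoid bodies that did or did not receive dTAG-13. All of them carried the knockin, a fusion that lets dTAG-13 direct NSD1 to degradation, so the cells without dTAG-13 are not unmodified E14 cells. The peaks are those of the 0 h library. Data of the other 5 samples were not used here. With 1 library there is no spread between replicates and no test, and values of the Pax genes are set beside those of all protein-coding genes or all peaks as a description.

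Pax genes encode transcription factors that bind DNA through a paired domain, and some carry a homeodomain as well. They fall into subgroups of close paralogues, namely Pax1 with Pax9, Pax2 with Pax5 and Pax8, Pax3 with Pax7, and Pax4 with Pax6. Each is switched on in particular primordia of the embryo, such as kidney, eye, neural crest, vertebral column or pancreas, and most are little used in undifferentiated embryonic stem cells. ATAC-seq reports where the Tn5 transposase can reach DNA. Accessible promoters and enhancers appear as peaks, whether or not the gene is transcribed.

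For 7 of the 9 genes the RefSeq promoter table (build GRCm38.p6) held 10 promoters, each with 250 bases before and 50 bases after an annotated start. Pax3 and Pax4 had no entry. The sequences of 6 promoters are shown because they span the range seen in the family, from a promoter wholly inside a peak to promoters with no base in any. They read 5′ to 3′ on the gene's strand, and capitals mark the bases that lie inside a deposited peak. Pax7 (chr4:139832919-139833218, minus strand) lay wholly inside a peak, and Pax9 (chr12:56695221-56695520, plus strand) held the tallest promoter peak. Pax6 is shown at its upstream start (chr2:105668646-105668945, plus strand) and at its downstream start (chr2:105682213-105682512, plus strand). Pax1 (chr2:147364744-147365043, plus strand) and Pax8 (chr2:24475550-24475849, minus strand) had no base inside a peak.
Pax7: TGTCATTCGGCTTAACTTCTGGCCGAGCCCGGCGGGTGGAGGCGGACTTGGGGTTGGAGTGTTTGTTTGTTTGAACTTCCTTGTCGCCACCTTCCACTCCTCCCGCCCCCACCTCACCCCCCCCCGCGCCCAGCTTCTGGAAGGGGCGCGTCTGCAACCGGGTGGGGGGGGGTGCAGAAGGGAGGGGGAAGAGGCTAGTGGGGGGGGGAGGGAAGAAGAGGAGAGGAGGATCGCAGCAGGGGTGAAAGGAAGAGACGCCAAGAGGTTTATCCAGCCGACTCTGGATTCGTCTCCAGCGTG
Pax9: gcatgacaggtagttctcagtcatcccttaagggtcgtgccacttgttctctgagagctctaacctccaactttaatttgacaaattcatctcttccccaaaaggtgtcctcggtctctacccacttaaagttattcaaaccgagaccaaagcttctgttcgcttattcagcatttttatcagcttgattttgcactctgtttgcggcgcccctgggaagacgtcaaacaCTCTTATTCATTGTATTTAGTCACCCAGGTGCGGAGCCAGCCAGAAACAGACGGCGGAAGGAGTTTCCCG
Pax6 upstream start: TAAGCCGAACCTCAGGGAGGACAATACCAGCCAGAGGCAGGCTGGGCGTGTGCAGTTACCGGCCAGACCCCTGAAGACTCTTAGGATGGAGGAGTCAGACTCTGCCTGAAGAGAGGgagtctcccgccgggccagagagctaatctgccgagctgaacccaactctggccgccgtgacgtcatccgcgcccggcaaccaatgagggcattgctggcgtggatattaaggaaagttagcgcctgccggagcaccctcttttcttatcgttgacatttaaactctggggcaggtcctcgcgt
Pax6 downstream start: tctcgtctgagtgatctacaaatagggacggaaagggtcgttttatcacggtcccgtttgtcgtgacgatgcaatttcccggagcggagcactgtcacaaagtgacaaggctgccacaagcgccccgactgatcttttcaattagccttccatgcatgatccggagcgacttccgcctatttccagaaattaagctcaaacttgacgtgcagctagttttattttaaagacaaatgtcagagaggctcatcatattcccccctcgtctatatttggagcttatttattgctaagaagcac
Pax1: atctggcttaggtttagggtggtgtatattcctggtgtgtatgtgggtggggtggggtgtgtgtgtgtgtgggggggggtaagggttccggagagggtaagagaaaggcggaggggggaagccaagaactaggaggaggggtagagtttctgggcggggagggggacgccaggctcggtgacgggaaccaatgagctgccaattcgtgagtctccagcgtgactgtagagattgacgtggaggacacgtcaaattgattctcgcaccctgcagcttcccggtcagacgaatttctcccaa
Pax8: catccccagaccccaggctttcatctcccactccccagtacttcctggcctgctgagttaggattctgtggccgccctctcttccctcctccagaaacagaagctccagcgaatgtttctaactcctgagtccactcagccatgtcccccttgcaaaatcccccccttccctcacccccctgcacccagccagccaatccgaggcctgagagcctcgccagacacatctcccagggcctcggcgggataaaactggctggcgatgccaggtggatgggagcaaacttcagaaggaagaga

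The height of a peak is given as its summit pileup, that is, how many reads or fragments overlie the summit, recovered from the authors' fold enrichment and p-value. Ranges in parentheses after a pileup are its exact Poisson 95% interval, for counting error alone. The fold enrichment is the authors' own value, the ratio of the summit to the local background of the same library, and serves only for description and ranking inside the list. Of 10 marker genes of the labelled cell type, embryonic stem cells, 9 had a peak within 1 kb of an annotated end, with a median pileup of 114. So did 2 of 4 fibroblast and feeder genes (22 and 38) and 4 of 4 neural progenitor genes (median 49). Among all protein-coding genes the share was 66.5%, with a median pileup of 66. The Wilson 95% intervals of the lists, 59.6 to 98.2, 15.0 to 85.0 and 51.0 to 100, all include 66.5%. These counts therefore do not tell the cell types apart. The sources used here give no total of reads. Where the background was at its genome-wide value of 1.3, the lowest listed pileup was 6, so a pileup of 5 or fewer was not detectable there.

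Most Pax genes had an accessible end, but the peaks there were low. A gene-end peak, one that overlaps the 1 kb either side of an annotated end, was found in 7 of 9 cases (77.8%, with a Wilson 95% interval of 45.3 to 93.7), against 66.5% of 21887 protein-coding genes, so the Pax share was near the background. The tallest gene-end pileup of those 7 genes had a median of 25 and ranged from 12 to 39, against a median of 66 over the 14552 protein-coding genes with one. All 7 lay below that median, and by fold the medians were 5.92 for Pax genes and 11.1 for all. The medians were also below those of all genes in 2 other families, 33.5 for Dlx and 36 for Gata genes, homeobox and zinc finger regulators of development, by pileup, and 5.74 and 5.53 by fold. With a pileup of at least 20 required, 5 of 9 Pax genes had such a peak, against 60.4% of protein-coding genes. Pax1 was the highest of them at 39 (27.7 to 53.3), a height that 26.7% of genes with such a peak do not exceed. Pax5 was the lowest at 12 (6.20 to 21.0), and for it that share was 3.56%. Pax4 and Pax9 had no peak within 1 kb of either end. The annotated start of Pax9 lies 3.78 kb inside its span, and that of Pax1 3.06 kb inside.

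**Figure D1:**
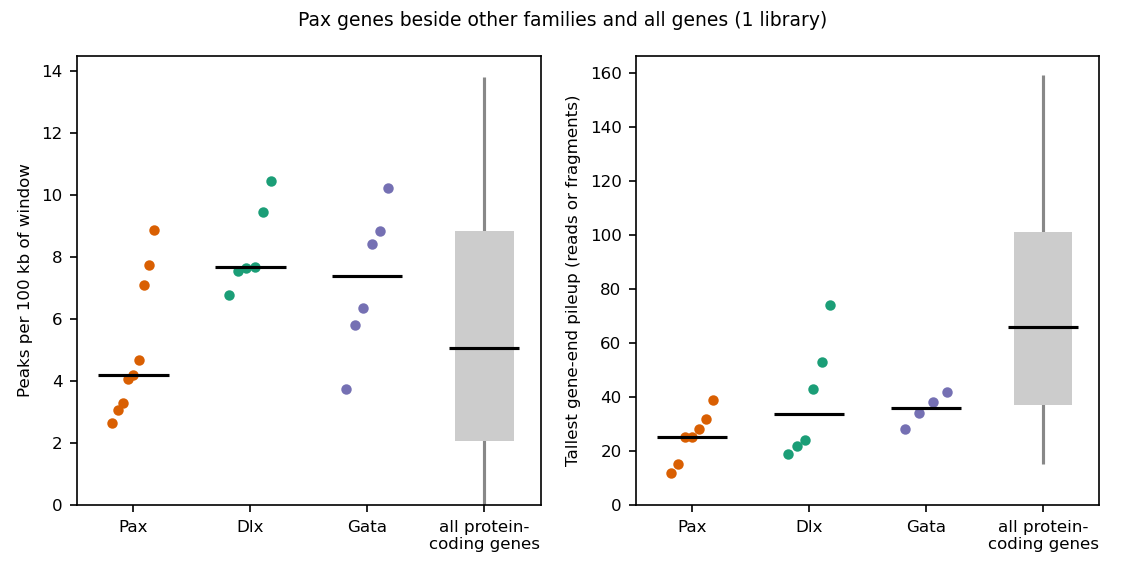
Peaks per 100 kb of window (left) and tallest gene-end pileup in reads or fragments (right) for Pax, Dlx and Gata genes, 1 point a gene with a black line at the median. The grey box spans percentiles 25 to 75 of all protein-coding genes and its line percentiles 5 to 95; the Pax gene-end pileups, from 12 to 39, all lie below the all-gene median of 66.

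Read from annotated starts instead of gene ends, the family spread further apart. A peak overlapped a promoter at 5 of the 7 genes with an entry (Pax2, Pax5, Pax6, Pax7 and Pax9), against 63.1% of 17492 protein-coding genes, and at 7 of the 10 Pax promoters, against 60.8% of 21263. The tallest promoter pileup was 84 (67.0 to 104) at Pax9, 32 (21.9 to 45.2) at Pax2 and at Pax7, 15 (8.40 to 24.7) at Pax6 and 12 (6.20 to 21.0) at Pax5. The interval of Pax9 does not overlap those of the other 4. The median of the 5 genes was 32, against 71 over the 11040 protein-coding genes with a promoter peak, and only Pax9 exceeded that median. With peaks of a −log10 q of at least 5 alone, Pax5 and Pax6 had none and 3 genes remained, against 61.8% of protein-coding genes.

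Summits lay close to some starts and far from others. At Pax7 the summit was 80 bp downstream of the start, in a peak 1116 bp wide. At Pax9 it was 160 bp downstream, and 70 of the 300 promoter bases, those around and after the start, were inside the peak. At the upstream start of Pax6 the summit was 224 bp upstream in a narrow peak of 280 bp that covered 116 bases and stopped short of the start itself, as the capitals in its sequence show. Over 12920 protein-coding promoters with a peak the median distance was 89 bp, with quartiles of 39 and 208 bp.

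Pax2 has 3 annotated starts, all touched by a peak. The first lay in a peak of pileup 25 (16.2 to 36.9). The other two, 9.15 and 10.3 kb into the gene, shared a broader peak of 1561 bp and pileup 32, whose summit was 95 bp downstream of the third start. At Pax5 the peak touched 18 promoter bases and its summit was 552 bp upstream. No peak overlapped the promoter of Pax1, whose nearest summit was 414 bp downstream with a pileup of 37 (26.1 to 51.0). None overlapped that of Pax8, with the nearest summit 1538 bp downstream at a pileup of 25, or the downstream promoter of Pax6. When 1 kb either side of a start was searched, all 7 genes had a peak, against 66.5% of protein-coding genes with an entry.

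**Figure D2:**
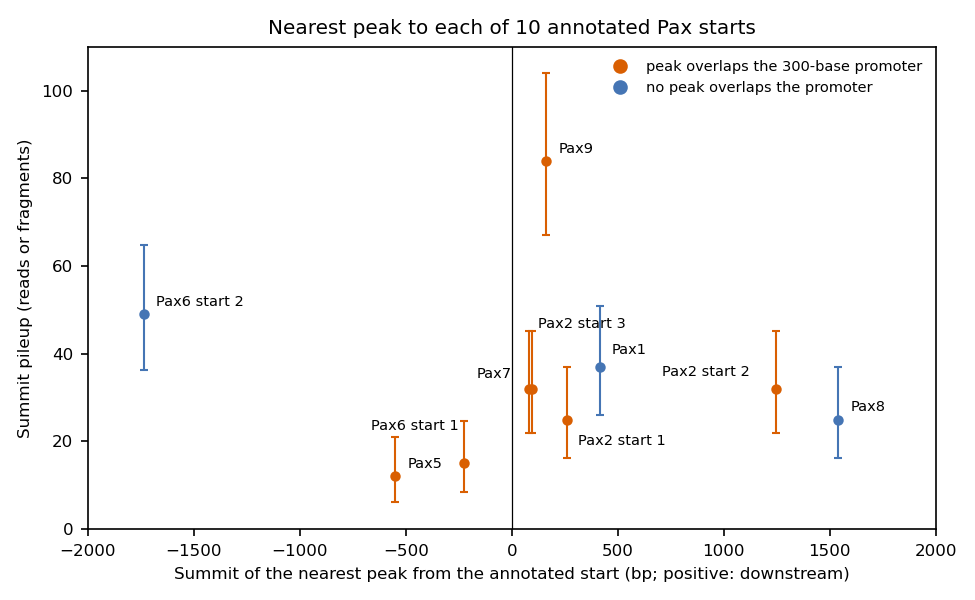
Summit of the nearest peak to each of 10 annotated Pax starts, by its distance in bp (x axis, positive downstream) and its pileup in reads or fragments (y axis), with exact Poisson 95% intervals. Orange points overlap the 300-base promoter and blue points do not; Pax9 stands highest at 84, and Pax5 and the upstream start of Pax6 lowest at 12 and 15.

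The Pax promoters differed in CpG dinucleotides, though by quartiles less than promoters at large. Their CpG counts per 300 bases ranged from 7 to 30, with a median of 16.5 and quartiles of 11.5 and 21.75. Over 21263 protein-coding promoters the median was 13 and the quartiles 4 and 24. Of promoters with 10 to 19 CpGs, 87.6% had a peak, with a median pileup of 66, and of those with 5 to 9 CpGs 37.3% had one. Pax7 with 17 CpGs, the upstream start of Pax6 with 18 and Pax9 with 11 belong to the class of 10 to 19, with pileups of 32, 15 and 84. Pax1 with 13 and the downstream start of Pax6 with 16 belong to it as well and had no peak. Pax8 and the first start of Pax2 had 7 each, and of these Pax2 had a peak and Pax8 none. Of promoters with 20 to 29 CpGs 97.4% had a peak (median pileup 79), and of those with 30 to 60 98.4% (median 78). Pax5 and the second start of Pax2, with 23 CpGs each, had peaks of 12 and 32. The third start of Pax2, with 30 CpGs, lay in the same peak of 32.

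Short motifs were searched on both strands of the 300 bases, as a description of letters only. The GC box GGGCGG was in 6 of the 10 Pax promoters, against 46.2% of all protein-coding promoters, and CCAAT was in 3, against 38.2%. The CCAAT matches stood 54 bases before the upstream start of Pax6, 57 before that of Pax8, and 63 and 52 before that of Pax1. The cAMP response element TGACGTCA was in the upstream Pax6 promoter alone, 76 bases before the start, against 2.23% of all promoters, and it lies in the lower-case part of that sequence, outside the peak. GTCACGC, part of the sequence bound by the paired domain, was in the Pax1 promoter alone, against 2.66%. The TATA box TATAAA (12.6% of all promoters) and the homeodomain core TAATTA (4.53%) were in none. No matches overlapped each other.

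The Pax windows held from 3 to 17 peaks, inside the range of 0 to 89 over all protein-coding genes. The counts were 3 at Pax1, 4 at Pax9, 5 at Pax4, 6 at Pax3, 8 at Pax7, 10 at Pax6, 11 at Pax8, 12 at Pax5 and 17 at Pax2. The median was 8, against 7 over all protein-coding genes. Pax genes are long, with a median length of 55.0 kb against 17.2 kb. Per 100 kb of window the Pax genes ranged from 2.65 to 8.87 peaks, against quartiles of 2.07 and 8.84 over all protein-coding genes. The median per 100 kb was 4.20 peaks, against 5.07. Pooled over all windows the order turned round, at 5.08 peaks per 100 kb for Pax genes and 3.92 for the combined windows of all protein-coding genes, so no direction is read from it. Dlx and Gata genes had medians of 7.66 and 7.37 per 100 kb.

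**Figure D3:**
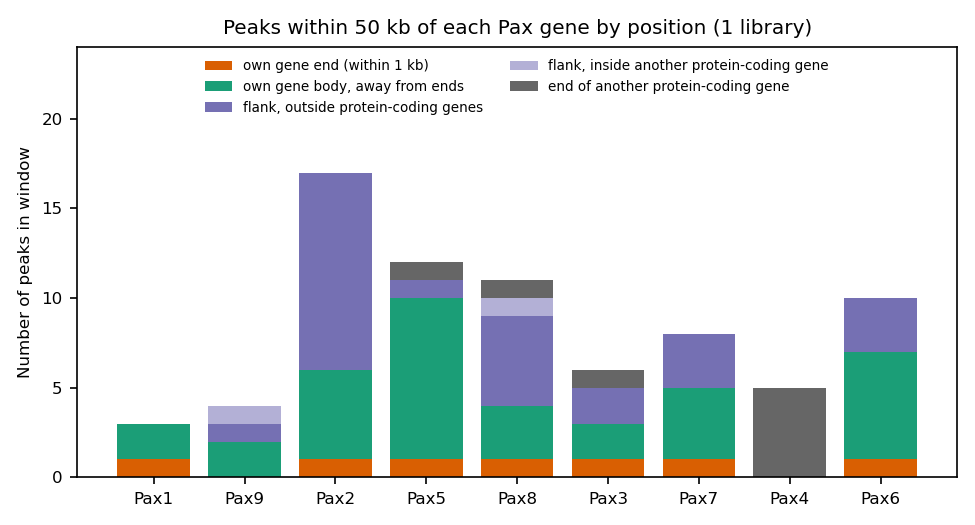
Number of peaks in the window of each Pax gene, stacked by position and ordered by subgroup. Pax2 has the most, 17, of which 11 lie in its flanks; all 5 peaks of the Pax4 window lie at the ends of other genes.

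Of the 76 peaks, 7 lay at a Pax gene's own ends, 33 inside its body away from them, 28 in the flanks and 8 at the ends of another protein-coding gene. The body peaks had a median pileup of 27, against 15.5 in the flanks, and the 8 at other genes' ends had a median of 41. Bodies were set by distance from the span ends, so they hold the promoter peaks of Pax9 (84) and of Pax2 (32). These heights were not compared over all protein-coding genes, so the contrast is not read as particular to Pax genes. Counted by annotated span alone, 38 peaks overlapped a Pax gene and 38 lay outside it, the end peaks of Pax5 and Pax6 and those at other genes among them. This gave 6.38 peaks per 100 kb inside Pax genes, against 4.53 over all protein-coding genes, and 4.22 per 100 kb in the widened sides, against 5.62, with a peak in several windows counted for each gene. Over the 76 peaks the median pileup was 22 and the median fold 6.16, against 23 and 7.05 over all peaks on chromosomes. A fold over 10 was reached by 9 of the 76 (11.8%), against 27.5% of peaks on chromosomes. A pileup of at least 20 was reached by 44 (57.9%), against 58.1%. A pileup of at least 100 was reached by 2 (2.63%), against 6.36% of peaks, and 1 of them was at a neighbour of Pax4.

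Peaks in the flanks lay mostly upstream of the Pax genes. Over the 7 genes whose strand the promoter table gives, 24 peaks outside the gene lay upstream and 6 downstream (80%), against 47.7% upstream over 17492 protein-coding genes, where a peak shared by several windows counted for each. Pax2 had 8 upstream and 3 downstream, Pax8 5 and 2, Pax6 4 and 0, Pax5 and Pax7 3 and 0 each, Pax9 1 and 1, and Pax1 none. Upstream peaks outnumbered downstream ones at 5 of the 6 genes with any. The share of all protein-coding genes where they do was not taken, so this count is not read as particular to Pax genes. This comparison was chosen after its values were seen. With peaks at gene ends left out the counts were 21 and 5, with no value over all protein-coding genes to set beside them.

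**Figure D4:**
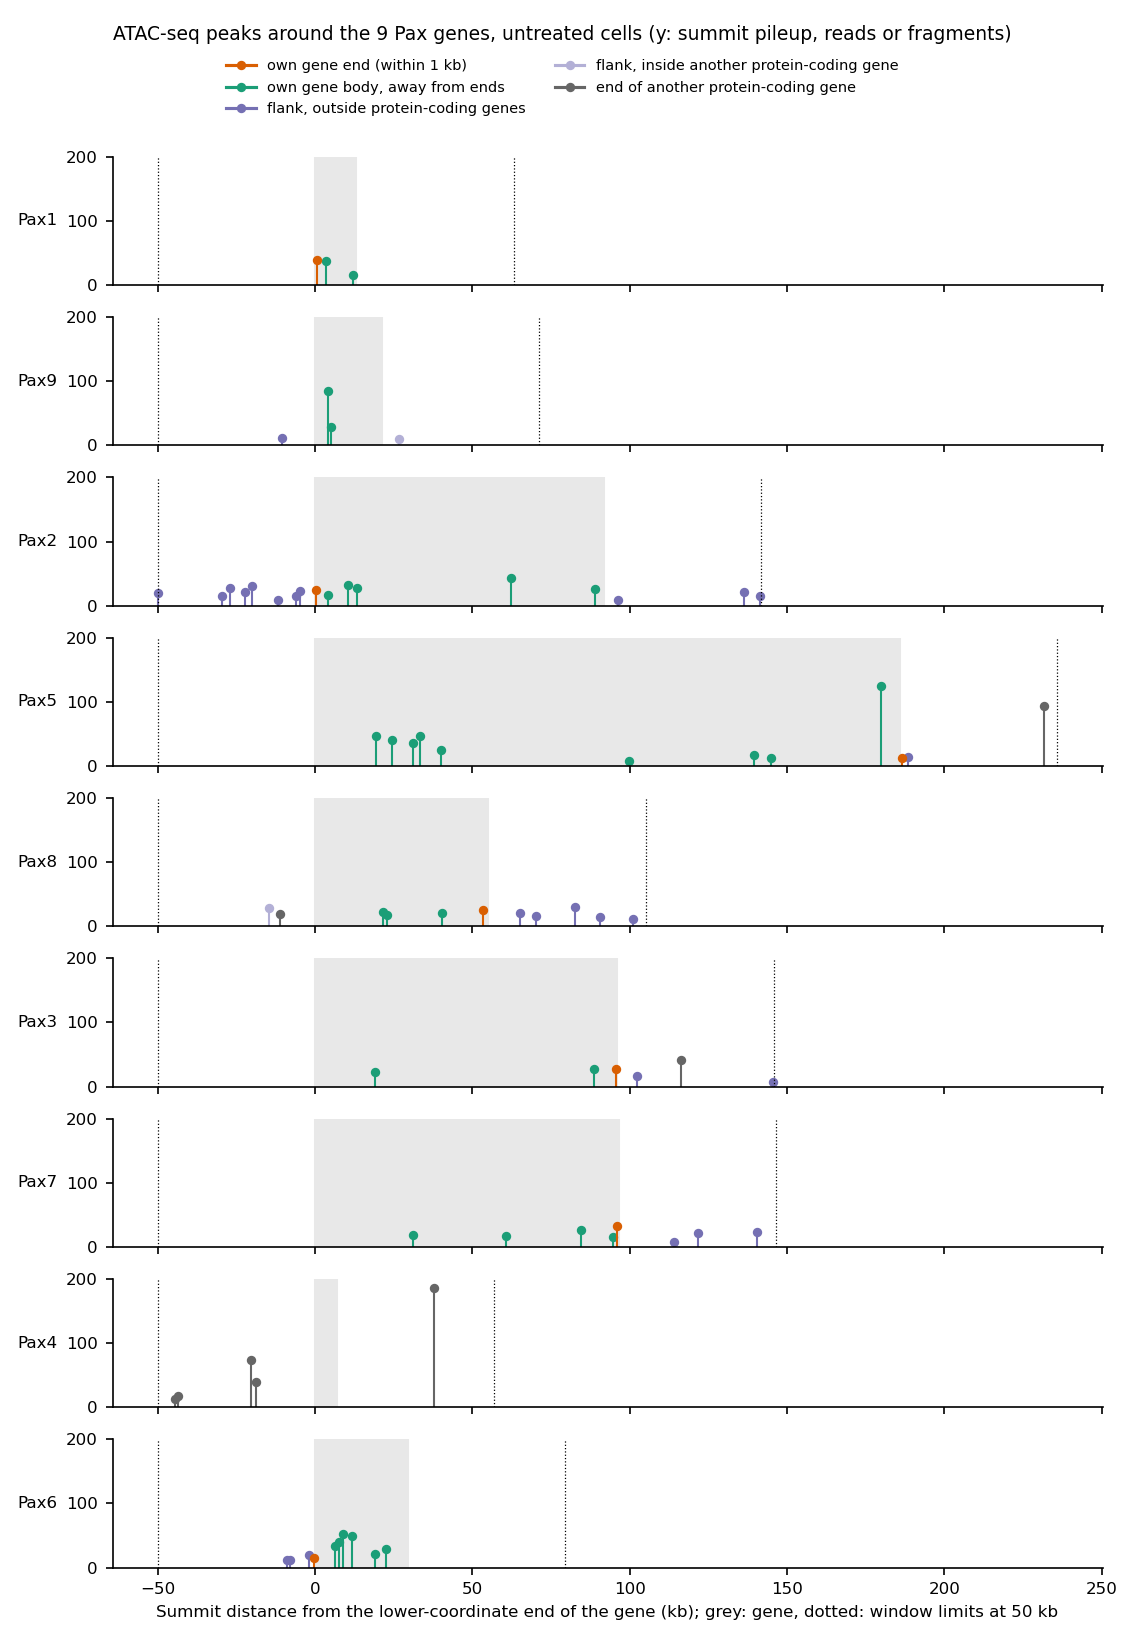
Summit pileup in reads or fragments (y axis) by distance in kb from the lower-coordinate end of each Pax gene (x axis), with genes in grey, window limits dotted and peaks coloured by position. Pax6 shows a run of 4 body peaks of 34 to 52, Pax5 a lone tall body peak of 125, and Pax4 no peak inside the gene or beside its ends.

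Pax1 and Pax9 act in the sclerotome, from which the vertebral column forms, and in the pharyngeal pouches, and Pax9 also in teeth. Both had few peaks, 7 in all, and 5 of them lay inside the genes. Pax1 had pileups of 39, 37 and 16 and no peak at all in its flanks. The peak of 39, at chromosome 2, 147362210 to 147362696, also lay within the non-coding gene AI646519. Pax9 had its promoter peak of 84 at chromosome 12, 56695451 to 56696005, and a body peak of 28 next to it. Its flank peaks were of 11 and 10, and that of 10 lay inside the protein-coding gene Slc25a21.

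Pax2, Pax5 and Pax8 had 40 peaks in all, with a median pileup of 21.5. Per 100 kb of window this was 6.32, against 6.34 for Pax4 with Pax6, 3.57 for Pax3 with Pax7 and 2.99 for Pax1 with Pax9. Pax2, needed for kidney, optic nerve and the midbrain-hindbrain boundary, had 8 peaks upstream, 6 in the body or at its end and 3 downstream. The upstream peaks ranged from 9 to 30, and 4 of them lay within 10 kb of each other, at chromosome 19, 44716811 to 44726807. Its tallest peak, 43 (31.1 to 57.9) with a fold of 13.1, lay deep in the body at chromosome 19, 44808762 to 44809429, 0.233 kb from the microRNA gene Mir6405.

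Pax5, which commits lymphoid progenitors to the B-cell lineage, had 9 body peaks over its 186 kb, the longest of the 9 genes. The tallest, 125 (104 to 149) with a fold of 15.1, lay at chromosome 4, 44703193 to 44704865, with its summit 6.12 kb downstream of the start and inside the non-coding gene 5730488B01Rik. It was the tallest of the 40 peaks at the ends or in the bodies of Pax genes, followed by the Pax9 promoter peak of 84. A further 5 body peaks of 25 to 47 stood together toward the far end of the gene, with summits 146 to 167 kb downstream of the start. Set against these, the peak at the Pax5 start was 12. The promoter table lists only 1 start for Pax5, and a peak at an unlisted start would be counted here as a body peak. The peak of 94 in its upstream flank lay at an end of Zcchc7.

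Pax8, a regulator of thyroid and kidney, had 11 peaks that were low and even, from 12 to 30. Upstream there were 5 and downstream 2, both at Psd4: the peak of 19 at its end and one of 29 inside it. The tallest, 30 (20.2 to 42.8) with a fold of 12.9, was an upstream flank peak at chromosome 2, 24503083 to 24503577. Its gene-end peak of 25 was 1320 bp wide and stopped short of the start. The non-coding gene Gm13415 inside Pax8 held the 3 body peaks, of 17 to 22.

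Pax3 and Pax7 specify neural crest and muscle progenitors, and Pax7 marks the satellite cells of adult muscle. They resembled each other in height, with tallest own peaks of 28 (18.6 to 40.5) and 32 (21.9 to 45.2) at the end of each gene. Pax3 had 6 peaks, of which 3 lay in or at the gene (22, 27 and 28). Beyond the higher-coordinate end stood flank peaks of 16 and 7, and one of 42 at an end of the gene model Gm2102. Pax7 had 8 peaks, with 19, 17, 27 and 16 in the body, the promoter peak of 32, and 7, 21 and 23 upstream. Its promoter peak also overlapped the non-coding gene Gm46873.

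Pax4 and Pax6 act together in the endocrine pancreas, and Pax6 is also needed for eye and forebrain. Their peaks lay in different places. Pax4 had no peak inside the gene or within 1 kb of its ends, and each of the 5 peaks in its window stood at another gene, 2 at Zfp800 (12 and 18), 1 at Gcc1 (74), 1 at Arf5 (40) and 1 at Snd1 (186, 160 to 215). The nearest, that of Arf5, lay 18.1 kb from Pax4. The share of protein-coding genes with a peak overlapping their span was 74.7%. Pax4 is also the shortest of the family, at 7.01 kb.

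Pax6 had 10 peaks, 6 of them in its body. A run of 4 with pileups of 34, 39, 52 and 49 lay at chromosome 2, 105675102 to 105680898, between the annotated starts. They were the tallest in its window, against 15 (8.40 to 24.7) at the upstream start. The intervals of the peaks of 39, 52 and 49 lay above that of the start, and the interval of the peak of 34, 23.5 to 47.5, overlapped it. The folds of the 4 peaks were low, 3.60 to 5.56, though above the 2.99 of the peak at the upstream start. The local background at the run was 8.0 to 10.1, against 4.35 at that start and a median of 2.12 over the whole list. That background is drawn from the same library around each peak, so neighbouring peaks count toward it. Upstream, peaks of 11 and 12 lay within Paupar, a non-coding gene named for its place upstream of Pax6, and one of 19 lay 1.16 kb from Pax6. These upstream peaks and the peak of 15 at the upstream start also lay within the non-coding gene Pax6os1.

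**Figure D5:**
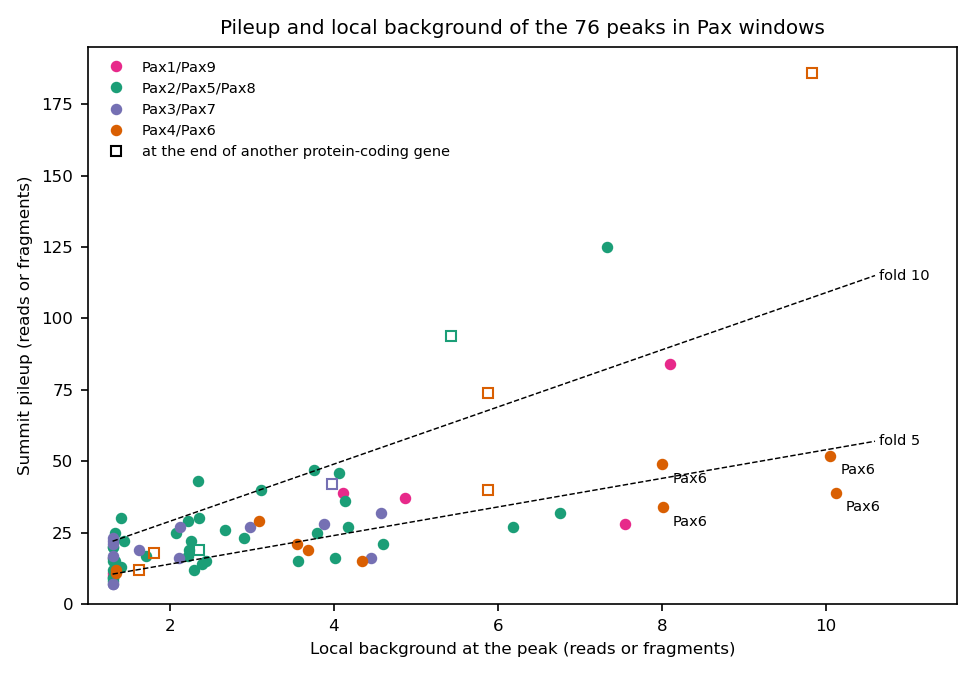
Summit pileup (y axis) against local background (x axis), both in reads or fragments, for the 76 peaks, coloured by subgroup, with open squares at the ends of other protein-coding genes. Dashed lines mark fold enrichments of 5 and 10; the 4 labelled Pax6 peaks combine a background of 8.0 to 10.1 with folds of 3.60 to 5.56.

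Partners and targets of Pax proteins mostly had accessible ends. Gene-end peaks were found for 34 of the 42 genes (81.0%, with a Wilson interval of 66.7 to 90.0), against 66.5% of protein-coding genes, with a median pileup of 44.5, against 25 for the Pax genes and 66 for all genes with one. The share was 71.4% with gene-end windows of 500 bp and 83.3% with 2500 bp, against 62.7% and 72.4% of protein-coding genes. The Eya, Dach and Six-class homeobox partners form a network with Pax proteins in eye, ear and kidney. They had a gene-end peak in 11 of 12 cases (median 52), the exception being Six3. The Wilson interval of that share, 64.6 to 98.5, includes the 66.5% of all protein-coding genes. The targets had one in 21 of 28 cases (75%, with a Wilson interval of 56.6 to 87.3), a share near the background, with a median pileup of 38. Paxbp1 and Paxip1, which link Pax proteins to histone methyltransferases and are expressed broadly, had the highest pileups, 129 (108 to 153) and 109 (89.5 to 131). Eya3 at 102, Six5 at 91 and Mitf, the pigment cell regulator controlled by Pax3, at 86 followed. Blk, a kinase of B cells, and Gcg, the glucagon gene, were among the 8 genes without one.

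The window of 50 kb set which peaks entered at its edges. The outermost peaks of Pax2 lay 49.5 and 49.4 kb from the gene (pileups 19 and 15), and the summit of the peak of 19 lay beyond the window. A flank peak of 7 lay 49.8 kb from Pax3. Just outside stood a peak of 9 at 50.6 kb from Pax4 and one of 31 at 50.8 kb from Pax5. With 20 kb in place of 50 kb the windows held 59 peaks, and with 100 kb they held 102.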

How the data were processed

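Chromatin accessibility was measured by ATAC-seq, and 1 library, untreated NSD1-dTAG cells, was analysed. Per the labels' protocols, Tn5 acted on isolated nuclei, and PCR products were size-selected with beads. Builds mm10 and GRCm38.p6 are named in the submitters' processing notes, as are deepTools 3.2.1, MACS2 2.2.6, SAMtools 1.9, Bowtie2 2.3.4.1 and bcl2fastq 2.20.0.422. How duplicates and mapping quality were filtered, and whether reads were shifted to the Tn5 cut, is not stated in those sources. PCR copies and repeat-derived reads would raise pileups if they were retained, and the sources give neither the depth nor the unit of pileup (reads or fragments).

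Each deposited peak has a whole-number score, 10 times the −log10 q rounded down in 100% of peaks. The list also holds the authors' ratio of summit to local background (fold enrichment) and the authors' −log10 p and −log10 q. Its peak names state that no control was used and a q threshold of 0.05. Pileup and background were recovered from fold = (pileup + 1)/(background + 1) with the deposited p taken as the upper Poisson tail above the pileup. Pileups came out whole, within 0.01, at 77626 of 77629 peaks. Positions are printed from 1.

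Gene spans were read from the GRCm38.p6 RefSeq table, with 21887 protein-coding genes on chromosomes 1 to 19, X and Y, without exons, so exon and intron were not separated. Promoters and strand came from the RefSeq promoter table, which matched 7 of 9 Pax genes. A peak counted where it overlapped by 1 bp or more. Groups were taken from sample titles, since the samples titled 1 h and 24 h carry a treatment label of 6 h. Named genes were all Pax genes, their gene-end and tallest peaks, neighbours with a peak at an end in a window, and of 42 partners and targets the 5 highest, the 3 alphabetically first that lacked a peak and both general partners. For 1 gene so chosen the result is not reported here. Other neighbours and non-coding genes were named after their values were seen. Members and lists were chosen with earlier results of these data known. On simulated data all 4897 pileups and all 500 window counts were recovered. Alternatives varied the widening, q and pileup thresholds, gene-end windows, the overlap rule and the measure of height. Software was matplotlib 3.10.9, scipy 1.17.1, pandas 2.3.3 and numpy 2.4.6 under Python 3.11.15.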

Additional observations from a re-analysis of the deposited data

How the results depend on the processing

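No paired analysis was possible because 1 library was analysed and no test was run. Requiring a pileup of at least 20 moved the count of peaks to 44, the median per window to 4 and the density to 2.94 per 100 kb. By fold enrichment in place of pileup the medians were 6.16 for peaks in the windows and 5.92 at gene ends, on another scale. The other 45 of 50 recomputed summaries stayed within 1.5 times the main value or within its 95% counting interval. Of 45 recomputed counts for single genes, 33 stayed within 1.5 times; Pax4 kept 1 peak within 20 kb. The share of flank peaks upstream was 69.8% within 100 kb and 84.2% without Pax2. The share over all protein-coding genes was not recomputed at 100 kb. These alternatives for the upstream share were chosen after seeing the data. Low pileups limit the rest: Pax5 and Pax6 had no gene-end peak at a −log10 q of at least 5. With that cut 5 of 9 Pax genes kept one, against 64.4% of protein-coding genes. The cut left out 11 of the 76 peaks. The share of all listed peaks under it is not given here, so that count is not read as particular to Pax genes.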
